A study of Mus musculus with 6 samples.

Results

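The levels of 10 genes of plasma membrane repair were followed on bead arrays of 6 stable clones of NIH3T3, an immortalized mouse fibroblast line from embryos of the NIH Swiss strain. They were the ferlin genes Dysf and Myof, the annexin genes Anxa1, Anxa2, Anxa5 and Anxa6, the calpain genes Capn1, Capn2 and Capn6, and the caveolin gene Cav1. All probes of the array whose annotated symbol was one of these names were taken, which gave 23 of 45281 probes and 10 of 19057 named genes. The genes were chosen from the membrane repair machinery with the FEAT-against-control differences of these same arrays already known, those of Dysf and Capn6 among them. Every difference between the groups given for these 10 genes is therefore a description and not an independent test. A probe annotated to Capn2 together with Lgals8 was left out.

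FEAT 3, FEAT 15 and FEAT 20 are clones that express human FEAT from the elongation factor 1alpha promoter of pEF-DEST51. Blasticidin S was used to select them, and those high in FEAT protein were kept. Against them stand control 1, control 2 and control 3, clones labelled ΔccdB that hold pEF-DEST51 without its ccdB gene. Whether these went through the same selection is not given in the sources used here. Each clone is a single stable line measured on 1 array, so the spread within a group holds clonal differences as well as array noise. The insert is human and the array is of mouse probes, so the arrays give no check of the transgene.

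The wounded plasma membrane is resealed by a calcium-driven machinery. Calcium that enters through the hole recruits annexins, which bind acidic phospholipids and gather at the wound edge, and ferlins, tail-anchored proteins with several C2 domains that take part in the fusion of vesicles with the plasma membrane. Calpains, calcium-dependent cysteine proteases, cut the cortical cytoskeleton and dysferlin itself near the wound, and caveolae, flask-shaped pits built on caveolin, buffer membrane tension. Loss of dysferlin causes a muscular dystrophy in humans, and fibroblasts reseal by the same general steps.

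Dysf, which encodes dysferlin, was higher and Capn6, which encodes a calpain without the catalytic cysteine, was lower in the FEAT clones. On their brightest probes they differed by 1.24 (SE 0.18) and -1.24 (SE 0.19) on the log2 scale, FEAT minus control. These 2 of the 10 genes passed an adjusted p of 0.05 (limma, Benjamini-Hochberg over 27169 probes), which 30 of 13315 tested genes did, or 0.225%. Since the genes were chosen with this contrast known, nothing is read from that count. The mean over the 4 tested Dysf probes was 0.70, with 1 of these probes above the background limit on 1 of 6 arrays. Capn6, with 2 of 3 FEAT arrays below that limit, was at -0.82 without background correction. Both calls were lost without control 1 (adjusted p = 0.172 for Dysf and 0.260 for Capn6 by limma) and without FEAT 3. Cav1, Anxa1 and, by a small margin, Capn2 had all 3 FEAT clones above all 3 control clones without passing the threshold. Anxa5 levels lay close together in all 6 clones, and so did those of Anxa2 after quantile normalization, but less markedly without it.

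The promoters of the 2 genes past the threshold are printed here so that the letters can be seen beside the levels that follow. The windows hold 250 bases before and 50 bases after an annotated transcript start, in RefSeq on GRCm38.p6, and run 5′ to 3′ on the strand of the gene. Dysf has 2 annotated starts, with windows at chr6:84008348-84008647 and chr6:84019136-84019435, both on the plus strand. Capn6 has 1, with its window at chrX:143827363-143827662 on the minus strand. Capitals mark matches on either strand to the GC box (GGGCGG), the TATA box (TATAAA), the AP-1 motif (TGANTCA), the TEAD motif (GGAATG) and the EGR motif (GCGGGGGCG).

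Dysf start 1: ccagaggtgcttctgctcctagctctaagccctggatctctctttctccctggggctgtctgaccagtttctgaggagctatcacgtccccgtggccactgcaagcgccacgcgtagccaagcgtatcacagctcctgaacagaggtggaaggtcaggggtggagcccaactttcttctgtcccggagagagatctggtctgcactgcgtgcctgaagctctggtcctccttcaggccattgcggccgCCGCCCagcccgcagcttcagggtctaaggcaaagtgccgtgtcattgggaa
Dysf start 2: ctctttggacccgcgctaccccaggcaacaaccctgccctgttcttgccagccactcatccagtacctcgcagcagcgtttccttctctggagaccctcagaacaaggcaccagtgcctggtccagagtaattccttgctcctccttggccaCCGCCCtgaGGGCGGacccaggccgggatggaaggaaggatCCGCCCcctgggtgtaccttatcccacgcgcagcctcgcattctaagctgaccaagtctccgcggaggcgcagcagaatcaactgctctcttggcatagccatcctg
Capn6: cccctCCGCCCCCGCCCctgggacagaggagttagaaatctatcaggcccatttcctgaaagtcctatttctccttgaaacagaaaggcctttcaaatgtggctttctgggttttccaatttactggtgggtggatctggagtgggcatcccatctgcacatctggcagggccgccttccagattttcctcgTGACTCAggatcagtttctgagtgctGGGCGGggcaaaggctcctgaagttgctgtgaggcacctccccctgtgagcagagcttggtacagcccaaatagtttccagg

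The first Dysf window held 1 GC box and the second held 3, and neither held a match to the other motifs. The Capn6 window held 3 GC boxes, 1 AP-1 match that began 58 bases before the start, and 1 EGR match that overlapped both of the GC boxes at the far end. Of all 32851 windows in the table, 35.7% held a GC box, 7.81% an AP-1 match, 2.91% an EGR match, 13.6% a TATA box and 14.7% a TEAD match. Windows were found for 9 of the 10 genes, and Anxa6 was not among them. Among the others, matches to the TATA box began 32 bases before the start in Anxa1 and 17 in Anxa2. In 1 of the 2 Cav1 windows a match lay 221 bases before the start, on the opposite strand. AP-1 matches stood in the windows of Anxa2 and Capn2. GC boxes stood in the windows of Anxa2, Capn1 and 1 of the 2 Cav1 windows, and a TEAD match in that of Anxa1. These matches are letters in a stretch of DNA, and binding was not measured.

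The levels printed for single clones are linear probe intensities from the deposited value table, in which every array has a mean of 680.2. They still hold the background. An array's background limit, the most common log2 intensity plus 3 SDs of the values below it, lay between 94.2 and 109 on this scale, and 36.9% to 39.8% of probes lay above it. Levels of different probes cannot be compared, since each probe binds with its own strength. Differences and their SEs come from background-corrected, quantile normalized log2 values.

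The brightest Dysf probe (ILMN_2420956) read 322, 395 and 493 in control 1, control 2 and control 3, and 893, 1021 and 791 in FEAT 3, FEAT 15 and FEAT 20. The lowest FEAT clone, FEAT 20, lay well above the highest control clone, control 3. The means were 403 ± 85.7 and 902 ± 115 (SD, n = 3 clones each), a ratio of 2.24, and the corrected values gave 2.37-fold. The SD within the groups, 0.28 on the log2 scale, was larger than that of 84.4% of the 13315 tested genes. Dysf was thus among the more variable genes between clones of one group, and the control clones in particular spread by an SD of 0.34.

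The other Dysf probes gave smaller differences. ILMN_3134844 read 120.1, 117 and 137 in the control clones and 166, 194 and 155 in the FEAT clones, a log2 difference of 0.63 (SE 0.15). ILMN_2674315 read 97.9, 138 and 127 against 180.5, 184 and 143, a log2 difference of 0.70 (SE 0.20). In both the groups did not overlap, although the margin on the latter, 143 in FEAT 20 over 138 in control 2, was small. ILMN_2555964, which is annotated to a cDNA clone and not to the RefSeq transcript of the others, differed by 0.24 (SE 0.17), with 1 of 6 arrays above the background limit. ILMN_3057828 was above the limit on none of the 6 arrays, read 64.1 to 83.9 and was too dim to be tested. The size of the difference thus depended on the probe.

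Myof, which encodes myoferlin, the closest relative of dysferlin and a protein of myoblast fusion, was dim on this array. Its brighter probe read 104, 100.5 and 94.5 in the control clones and 111, 94.5 and 111 in the FEAT clones, and only 1 control array and 2 FEAT arrays were above the limit. The groups overlapped, with a log2 difference of 0.13 (SE 0.15, 95% interval -0.19 to 0.45). Its other probe was above the limit on 1 of 6 arrays and differed by 0.11 (SE 0.15). Both probes sat so close to the background that a change of the transcript may not have been detectable with them.

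**Figure D1:**
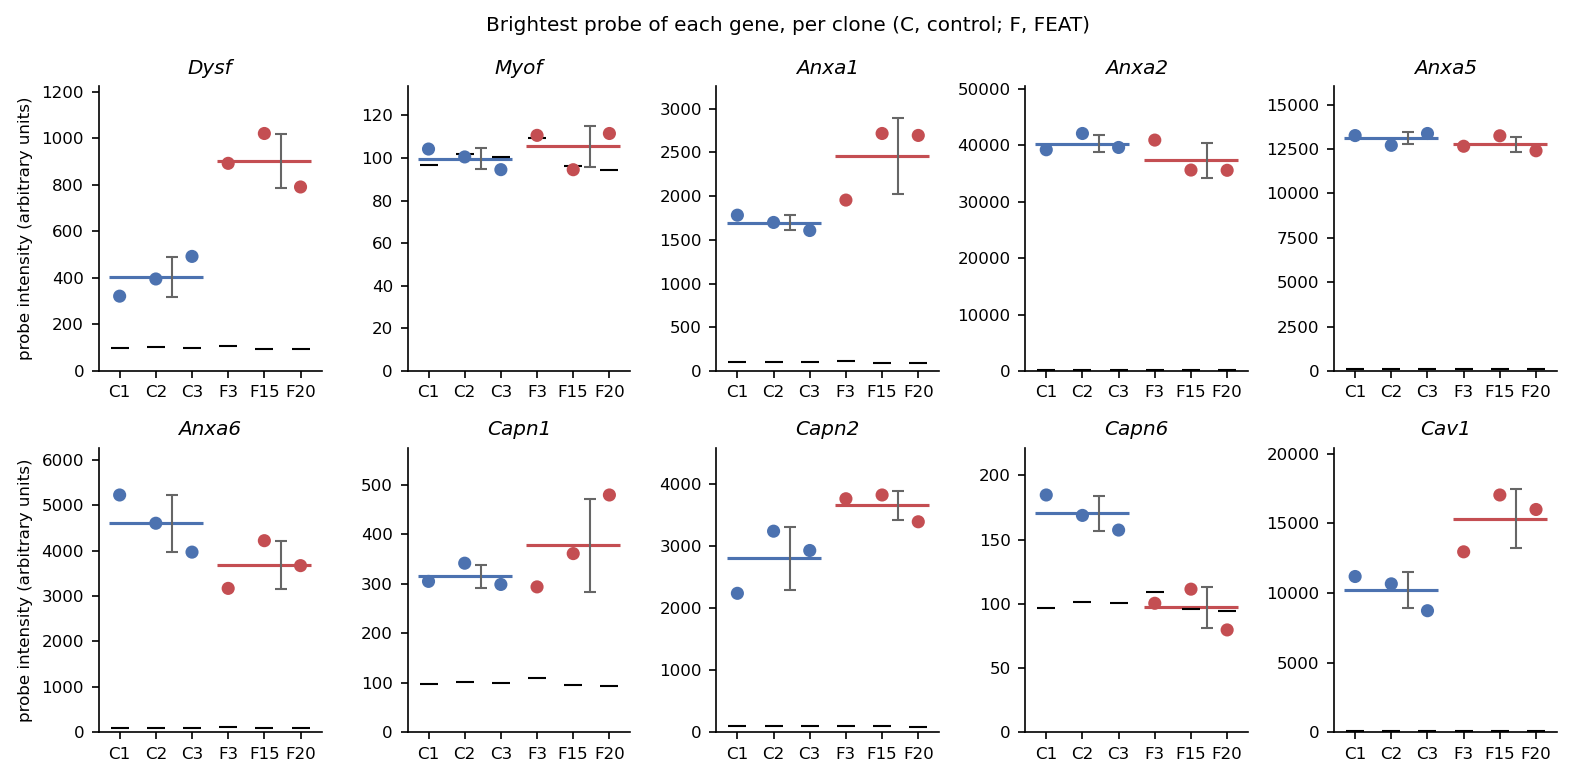
Intensity of the brightest probe of each of the 10 genes (y axis, arbitrary units, from 0) in control clones C1, C2 and C3 (blue) and FEAT clones F3, F15 and F20 (red). Horizontal lines are group means, grey bars are 1 SD over 3 clones, and black dashes are each array's background limit. Dysf, Anxa1, Capn2 and Cav1 have no FEAT clone as low as a control clone, Capn6 has the reverse, and Myof and the FEAT clones of Capn6 sit at the background limit.

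Among the annexins, Anxa1 was higher in the FEAT clones. Anxa1, which encodes a phospholipid-binding protein that is also an anti-inflammatory mediator, read 1782, 1699 and 1607 in the control clones and 1955, 2717 and 2694 in the FEAT clones. The groups did not overlap, with FEAT 3 much nearer to the control clones than FEAT 15 and FEAT 20 were. The log2 difference was 0.50 (SE 0.15), 1.42-fold, and did not pass.

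Anxa2, whose product forms a tetramer with the S100 protein S100A10 and binds actin, read 39209.7, 42095 and 39617 in the control clones and 40925, 35611 and 35567 in the FEAT clones. In these intensities the groups overlapped, since FEAT 3 exceeded control 1 and control 3. On the normalized log2 scale FEAT 3 was the lowest clone, at 15.16. There the groups met only in a tie of FEAT 20 with control 3, at 15.24. The log2 difference was -0.12 (SE 0.12, 95% interval -0.39 to 0.16), and a much dimmer second probe gave -0.08 (SE 0.13). The brightest probe of any gene read 42718 to 54675 on these arrays, so the main Anxa2 probe sat near the top of the range, where a change can be understated.

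Anxa5, the annexin best known as a probe for exposed phosphatidylserine, read 13264, 12714 and 13382 in the control clones and 12662, 13252 and 12408 in the FEAT clones. Its log2 difference was 0.01 (SE 0.12, 95% interval -0.26 to 0.28), and its sign turned, to -0.04, with the deposited value table and, to -0.05, with median centring. Its SD within groups was 0.041. Anxa2 and Anxa5 stood at percentiles 1.29 and 0.556 of this SD, and at 17.0 and 1.35 when the SD was taken from the deposited value table, without quantile normalization. So the steadiness of Anxa5 was seen on both scales, while that of Anxa2 was much less marked without quantile normalization.

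Anxa6, whose product is the largest annexin, with a doubled core of annexin repeats, read 5221, 4599 and 3964 in the control clones and 3167, 4216 and 3667 in the FEAT clones. FEAT 15 lay above control 3, so the groups overlapped. The log2 difference was -0.34 (SE 0.15) and did not pass. Its other probes were above the limit on none of the 6 arrays and add no measurement.

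Of the 3 calpain genes, Capn6 passed the threshold and Capn1 and Capn2 did not. Capn6 had a single probe (ILMN_2695143), which read 185, 169 and 157 in control 1, control 2 and control 3 and 100.5, 111 and 79.7 in FEAT 3, FEAT 15 and FEAT 20. All control arrays were above their background limit, and of the FEAT arrays 1, that of FEAT 15, was, at 111 against a limit of 96.1. The group means were 170.3 ± 13.7 and 97.2 ± 16.1 (SD, n = 3 clones each), and the log2 difference was -1.24 (SE 0.19). Because the FEAT level was near background, its size depended on the correction: it was -0.82 without background correction, where the call was lost, and -0.82 in the deposited value table, where it was kept. Capn6 is known from placenta and embryonic muscle and has been described as a stabilizer of microtubules.

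Capn1 and Capn2 encode the large subunits of the ubiquitous mu- and m-calpain, which share the small subunit Capns1 and the inhibitor calpastatin, Cast. Capn2 read 2239, 3239 and 2928 in the control clones and 3761, 3821 and 3390 in the FEAT clones on its brightest probe. Every FEAT clone was above every control clone, with control 1 the lowest of all. On the normalized log2 scale the margin was small, 11.664 in FEAT 20 over 11.661 in control 2. The log2 difference was 0.38 (SE 0.16), 1.30-fold, and fell to 0.23 without control 1. The 2 other bright Capn2 probes gave 0.25 (SE 0.15) and 0.22 (SE 0.14), with the same lowest clone. Their groups did not overlap in the deposited intensities but overlapped on the normalized scale. The 2 dimmer ones, annotated to cDNA clones, gave 0.19 and -0.01. None of the 5 passed.

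Capn1 read 305, 342 and 299 in the control clones and 294, 361 and 479 in the FEAT clones. The groups overlapped, and FEAT 20 alone lay clearly above the control range. The log2 difference was 0.25 (SE 0.18, 95% interval -0.15 to 0.64), and it was 0.05 without FEAT 20. The second Capn1 probe was above the limit on none of the 6 arrays.

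Cav1, the main structural protein of caveolae outside striated muscle, read 11186, 10659 and 8732 in the control clones and 12956, 17034 and 15994 in the FEAT clones. The groups did not overlap, and FEAT 3 was the FEAT clone nearest to the control clones, as it was for Anxa1. The means were 10192 ± 1292 and 15328 ± 2119 (SD, n = 3 clones each). On the log2 scale they differed by 0.61 (SE 0.15), 1.53-fold, which did not pass.

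**Figure D2:**
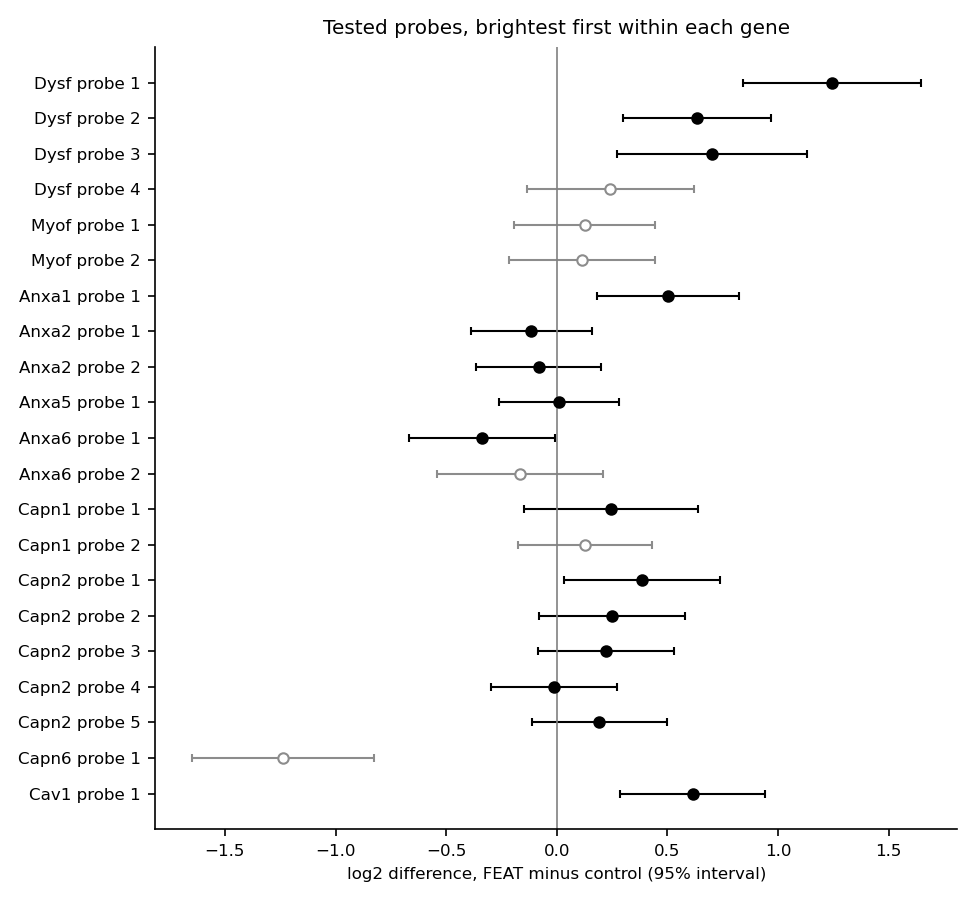
Log2 difference, FEAT minus control, of the 21 tested probes of the 10 genes (x axis), with unadjusted 95% intervals from limma, brightest probe first within each gene (y axis). Filled points were above the background limit on all 6 arrays and open grey points were not. Dysf probes run from 0.24 to 1.24 and Capn2 probes from -0.01 to 0.38, so probes of one gene differ in size.

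Over the 10 genes, 7 log2 differences were positive and 3 negative, with a median of 0.19, against a median of 0.01 over all 13315 tested genes. The groups did not overlap for 5 of the 10 genes, and over all tested genes the same was true of 15.2%. Of these 5, Dysf, Anxa1, Capn2 and Cav1 had the FEAT clones on top, which was true of 7.95% of all tested genes, and Capn6 had them below. On the normalized log2 scale, from which these counts come, the Capn2 margin was small. The genes were chosen with these differences known, so the counts are not evidence about the group. Of the 10, 8 were above the background limit on all 6 arrays, and the others were Myof and Capn6.

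**Figure D3:**
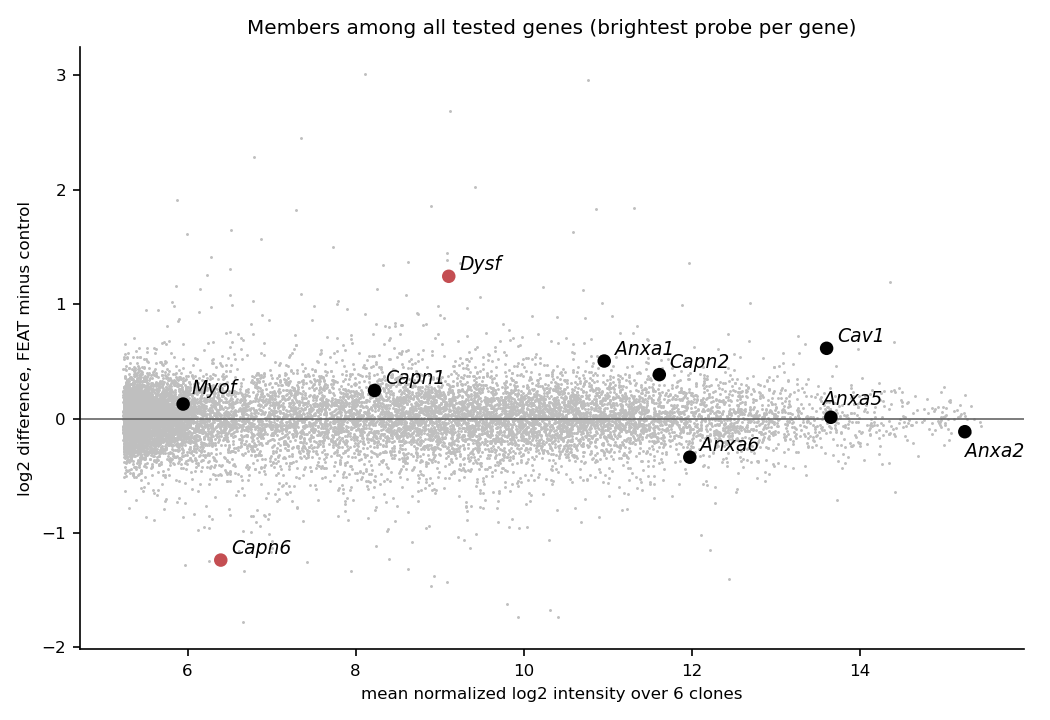
Log2 difference, FEAT minus control (y axis), against the mean normalized log2 intensity over the 6 clones (x axis) for the brightest probe of each of 13315 tested genes (grey) and the 10 genes (large points). Dysf and Capn6 (red, past the threshold) stand apart at 1.24 and -1.24, and the other 8 (black) lie between -0.34 and 0.61.

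The rest of the repair machinery was described with lists of 64 further genes, also written with earlier results of these arrays known. Of these, 60 were on the array and 53 were bright enough to be tested. By limma 0 passed an adjusted p of 0.05, and 6 had an unadjusted p under 0.05, in a comparison where 10.1% of all tested genes did. Their median log2 difference was -0.02. Differences were positive for 25 and negative for 28.

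The other caveolar genes held the highest of these differences. Of 12 tested genes of caveolae and their coat, 8 were positive and 4 negative, with a median of 0.07 and a range from -0.38 to 0.63. Ehd1, which encodes an ATPase of endosomal recycling related to the caveolar neck protein Ehd2, read 566, 678 and 834 in the control clones and 958, 956 and 1290 in the FEAT clones. These do not overlap, and the log2 difference was 0.63 (SE 0.18, limma, adjusted p = 0.258). Pacsin3, which encodes an F-BAR protein of the muscle caveola, differed by -0.38 (SE 0.16, adjusted p = 0.488), and by -0.33 and -0.09 on its other bright probes.

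Among the other lists, the highest and lowest values came from an ESCRT gene and an annexin. Chmp3, a subunit of the ESCRT-III complex that pinches off damaged membrane, read 663.5, 545 and 605 in the control clones and 761, 827 and 825 in the FEAT clones, with no overlap. Its log2 difference was 0.41 (SE 0.13, limma, adjusted p = 0.351). Anxa11, an annexin that links RNA granules to lysosomes, read 3225, 3312 and 3149 in the control clones and 1886, 2223 and 3342 in the FEAT clones. FEAT 20 was above all control clones while FEAT 3 and FEAT 15 were well below, and the difference was -0.45 (SE 0.18, adjusted p = 0.479).

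In the remaining lists, and in these as a whole, medians lay between -0.16 and 0.11. The other annexins had a median of 0.02 over 6 tested genes, the S100 partners of annexins -0.08 over 4, and the other calpains 0.11 over 7. Capns1 and Cast differed by -0.12 (SE 0.13) and -0.10 (SE 0.15), and neither passed. The ESCRT genes had a median of -0.05 over 10 genes, the genes of vesicle fusion and lysosomal exocytosis -0.04 over 8, and the other dysferlin partners -0.16 over 4. Trim72, which encodes the muscle repair protein MG53, was above the background limit on no array, and its fitted difference of -0.34 (SE 0.14) did not pass. Of the other ferlins, Otof was on the array and was too dim to be tested.

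**Figure D4:**
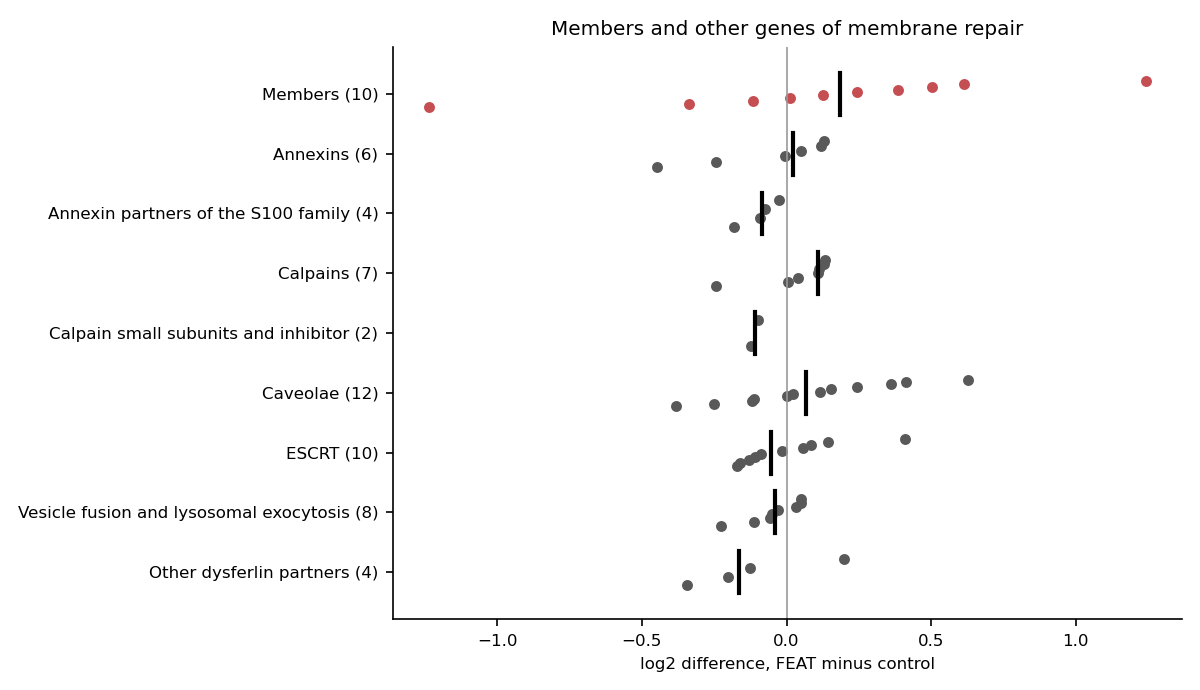
Log2 difference, FEAT minus control (x axis), of the brightest probe of each tested gene, for the 10 genes (red) and 8 lists of other repair genes (grey, number of tested genes in brackets on the y axis). Black bars are medians. Outside the 10 genes, values run from -0.45 (Anxa11) to 0.63 (Ehd1).

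The genes most like Dysf and Capn6 over the 6 clones were found by the root mean square difference between normalized log2 profiles, each centred on its own mean, against 13314 other genes. Nearest to Dysf were the BMP signalling inhibitor Smad6 (0.158), the matrix glycoprotein gene Thbs1 (0.166), the connective tissue growth factor gene Ccn2 (0.206) and the EGF receptor ligand gene Hbegf (0.209). Thbs1 was above the background limit on 1 of 3 control arrays, so its profile rests on control values at background. Smad6 read 284, 310.3 and 326 in the control clones and 632, 668 and 544 in the FEAT clones, and the 6 clones stood in the same order for Smad6 as for Dysf. Nearest to Capn6 were Itgbl1, an integrin beta-like gene (0.148), Iqcf5 (0.178) and the sterol synthesis genes Nsdhl (0.183) and Dhcr7 (0.191). Itgbl1 read 1001, 867 and 920 in the control clones and 345, 454 and 338 in the FEAT clones. The Capn6 profile rests on FEAT values at background, with 1 of 3 FEAT arrays above the limit, so the order of its FEAT clones and its nearest genes are uncertain. A gene that differs between the groups by about the same amount will be near in this measure, whatever else it does.

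The fibroblast label was borne out by the markers: 9 of 10 fibroblast markers were above the background limit on all 6 arrays, and Lum was above it on none. Their summed intensity was 37326 to 39857 in the control clones and 41198 to 48723 in the FEAT clones. It moved in the same direction as Dysf and Cav1, and its part in their differences was not tested. The sum mixes probes of unlike strength, and the markers did not rise alike. Vim, its largest part, had means of 23157 (control) and 23270 (FEAT), against 4173 and 6526 for Col1a1 and 5130 and 7478 for Fn1. Of 9 tested markers, 8 log2 differences were positive and 1, that of Pdgfrb, negative, and 0 passed. Of 9 skeletal muscle markers on the array, 6 were above the limit on no array, among them Myod1, Myf5, Pax7 and Ckm. Des and Acta1 were above it on all 6 arrays, and Myog on 1 control array and 3 FEAT arrays. Acta1 read 198, 123 and 223 in the control clones and 593, 212 and 184 in the FEAT clones, high in FEAT 3 alone, with a log2 difference of 0.86 (SE 0.45, limma, adjusted p = 0.607). The sum of the muscle list was 800.4 to 902 in the control clones and 831 to 1342 in the FEAT clones, and its part in the differences of the 10 genes was not tested. The epithelial, endothelial, macrophage and adipocyte lists had 1 of 19 markers, Cdh1, above the limit on all 6 arrays.

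The calls of Dysf and Capn6 did not hold in every omission of a clone, although the differences stayed. With a clone left out, the log2 difference was 1.08 to 1.42 for Dysf and -1.42 to -1.06 for Capn6. Dysf kept its call in 7 of 7 other settings of scaling, correction, filter and variance model, with log2 differences of 1.15 to 1.26. It lost it without control 1 (1.08, adjusted p = 0.172 by limma), without FEAT 3 (1.21, 0.0999) and without FEAT 15 (1.16, 0.0774). Capn6 kept its call in 5 of 7 settings. It lost it without control 1 (-1.15, adjusted p = 0.260 by limma), control 3 (-1.31, 0.102), FEAT 3 (-1.23, 0.119) and FEAT 20 (-1.06, 0.0526). Without control 1 limma called 0 of all probes, with 1934 at an unadjusted p under 0.05. The signs of both held throughout, as they must where the groups do not overlap.

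**Figure D5:**
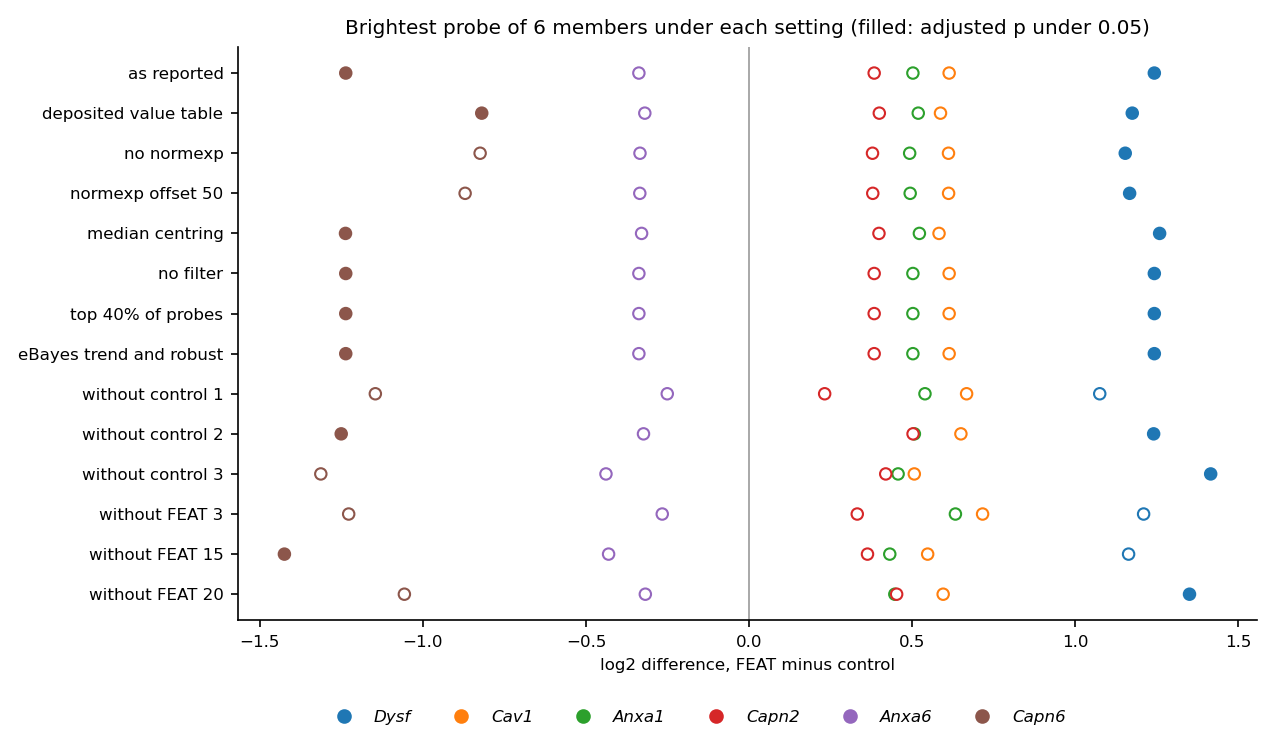
Log2 difference, FEAT minus control (x axis), of the brightest probe of 6 of the genes under each processing setting and with each clone left out (y axis). Filled points passed an adjusted p of 0.05 in that setting. Dysf lies between 1.08 and 1.42 throughout and Capn6 between -1.42 and -0.82. The Capn6 values nearest to 0 are in the settings with little or no background correction, and the lowest Dysf value is without control 1.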

How the data were processed

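Total RNA of 6 NIH3T3 clones was extracted (RNeasy Mini), amplified (Illumina TotalPrep), labelled with Cy3 and put on 1 array for each clone, per the labels' protocols. The submitters' processing notes name BeadStudio without a version. The deposited intensity values were linear and not background-subtracted; the value table of the series holds the same values times 1 factor per array, and single-clone levels come from it. No detection p was used here.

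With R 4.3.3 and limma 3.58.1, normexp (offset 16) was fitted to the sample intensities, followed by quantile normalization and log2. The top 60% of probes by mean (27169) were tested with lmFit and eBayes, FEAT against control, two-sided, with Benjamini-Hochberg adjustment at 0.05. The fit and the adjustment, but not the correction, normalization or filter, were checked on simulated data. An exact permutation test of 3 against 3 clones cannot go below p = 0.1 and was not used. The brightest probe stood for its gene. Named outside the 10 genes were the 4 context genes with the smallest p, the 4 genes nearest in pattern to Dysf and to Capn6, and list members singled out after their values were seen. Names came from the GEO platform annotation: 34885 probes had 1 gene, 18 several and 10378 none. P-values set the difference between the groups against the spread between clones, which also holds array noise. In eBayes each probe's spread is drawn toward that typical of all tested probes. The SEs of Dysf and Capn6 are therefore smaller than their own clones alone would give, and that of Anxa5 is larger. The 10 genes and all lists were chosen with earlier results of these data known.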

Additional observations from a re-analysis of the deposited data

How the results depend on the processing

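Alternatives were the deposited value table, no background correction, a normexp offset of 50, median centring in place of quantiles, no filter, the top 40% of probes, eBayes with trend and robust, other uses of the probes, and each clone left out. Of the 10 genes, 2 were called; the number was 1 without background correction and 1 with an offset of 50, where Capn6 dropped out (adjusted p = 0.0698 and 0.0545 by limma), and ran from 0 to 2 with a clone left out. Over all probes the count of 50 ran from 0 to 158 with a clone left out: 0 without control 1, 10 without control 3, 18 without FEAT 3 and 158 without control 2. Among the other repair genes 0 were called by limma in every setting and omission. The mean over the tested probes moved Dysf from 1.24 to 0.70. Of these probes, 1 was above the background limit on 1 of 6 arrays. Both ILMN_3134844 and ILMN_2674315 were dim in the control clones, at 117 to 137 and 97.9 to 138, against limits of 96.9 to 102. Across scalings the median of all tested genes moved by less than 0.1 on the log2 scale. Signal over background limits Myof, Capn6 in the FEAT clones and the dim probes of Dysf, Anxa6 and Capn1. No paired analysis was possible because the groups share only the number 3, which names unrelated clones.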
